A study of Mus musculus with 6 samples.

Results

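A set of 8 genes of neurotrophic signalling was described in mouse locus coeruleus, taken by name from the deposited expression table, which gave 8 of its 56923 gene rows. They are the ligands Bdnf and Gdnf, the neurotrophin receptors Ntrk2, Ntrk3 and Ngfr, and the GDNF receptor components Ret, Gfra1 and Gfra2. The locus coeruleus is the pontine nucleus whose neurons supply noradrenaline to most of the brain. Biopsy punches of it gave poly-A RNA for bulk sequencing. There were 3 wild-type (WT) libraries, numbered 62, 63 and 66, and 3 libraries of 5xFAD transgenic tissue, numbered 64, 65 and 79. The 5xFAD line is a model of amyloid deposition that carries human transgenes with familial Alzheimer's disease mutations, APP among them, in a neuronal Thy1 expression cassette. The series is titled after tau phosphorylation and neuronal overexcitability here in relation to disturbed sleep, and its contrast is genotype. Age, sex, litter and batch are not given in the labels, and nothing says that each number is a separate animal, so the p-values measure only the spread between these samples, which may be partly technical.

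Neurotrophins act through receptor tyrosine kinases of the Trk family and through the p75 receptor, which Ngfr encodes. GDNF family ligands first bind a membrane-anchored co-receptor of the GFRα family, and the complex then activates the kinase Ret. Both systems support the survival and growth of catecholamine neurons, and noradrenergic neurons of the locus coeruleus are known to make BDNF and to respond to GDNF and to neurotrophin-3, the ligand of the Ntrk3 product.

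The libraries held 15158712 to 20079349 reads assigned to genes, and values are normalized counts, which are reads divided by 1 size factor per library. Of 10 noradrenergic markers, 9 had reads in every library, and Hand2 was at 0 in all. Their summed normalized count was 8063 to 14496 in WT and 11284 to 15962 in 5xFAD. Cerebellar tissue borders the punched area, and the summed count of 5 Purkinje cell markers was 4014 to 19982 in WT and 7233 to 26187 in 5xFAD, highest in WT 63 and 5xFAD 65. Choroid plexus markers summed to 1304 in WT 66 and to 97.5 to 142 in the other libraries. In bulk tissue, fewer cells of a type and less RNA per cell cannot be told apart.

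The Bdnf gene has alternative starts that each join a shared coding exon, so its gene total pools transcripts from all of them. The RefSeq promoter table (GRCm38.p6) held 5 of the 8 members, without Ret, Gfra2 and Ntrk3. It lists 7 starts for Bdnf, and the 250 bases before each were searched on both strands for TGACG, the core of the cAMP response element through which neuronal activity acts on many genes. One of the 7 held it, and it is shown because transcripts from this start enter the ligand total described next. The sequence before the start of Th, which encodes tyrosine hydroxylase of the noradrenaline pathway, is set beside it because, once the values were seen, Bdnf resembled the noradrenergic markers over the libraries. Capitals mark TGACG or its reverse complement CGTCA. In Th both overlap in the full element.
Bdnf, listed start 3, chr2:109692186-109692435, plus strand: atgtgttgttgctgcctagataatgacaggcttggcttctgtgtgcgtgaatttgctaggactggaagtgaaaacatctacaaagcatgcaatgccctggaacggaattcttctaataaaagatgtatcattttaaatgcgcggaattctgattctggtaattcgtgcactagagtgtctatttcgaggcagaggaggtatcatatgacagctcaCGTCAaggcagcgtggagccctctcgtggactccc
Th, chr7:142899996-142900245, minus strand, read 5′ to 3′ along the gene: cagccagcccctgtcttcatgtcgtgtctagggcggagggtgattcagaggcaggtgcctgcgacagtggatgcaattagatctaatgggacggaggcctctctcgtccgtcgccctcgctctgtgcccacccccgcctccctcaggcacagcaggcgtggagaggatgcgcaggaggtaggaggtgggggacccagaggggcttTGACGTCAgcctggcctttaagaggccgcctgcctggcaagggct
The match begins 35 bases before the start in Bdnf and 45 bases before it in Th. Of the 32851 listed promoter windows, 17.8% held TGACG and 1.55% the full TGACGTCA, so a match is common and is given only as a description. The counts are gene totals and do not show which Bdnf start was used.

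Bdnf (ENSMUSG00000048482.15), the ligand of the Ntrk2 receptor, was read at a modest level that varied about as much within the genotypes as between them. Its normalized counts were 221, 261 and 163 in WT, against 199, 324 and 232 in 5xFAD. The lowest value was WT 66 and the highest 5xFAD 65, and the groups overlapped. The means were 215 ± 48.9 for WT and 252 ± 65.1 for 5xFAD (SD, n = 3 each), giving a log2 fold change of 0.22 (SE 0.22, with its 95% interval from −0.29 to 0.74, limma adjusted p = 0.9995). Every such value sets 5xFAD over WT, with 1 added to each normalized count before the logarithm. Without WT 66 the log2 fold change of Bdnf was 0.04, and without 5xFAD 65 it was 0.02.

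Gdnf (ENSMUSG00000022144.5), the founding ligand of its family, was close to the limit of detection. The table gives 4, 6 and 11 reads in WT, against 3, 1 and 4 in 5xFAD, or 29 reads in all 6 libraries. WT 66 held the most and 5xFAD 65 the fewest, and the groups overlapped. With a normalized count of at least 10 in 1 library alone, Gdnf stayed under the filter of 10 in at least 3 libraries. It entered limma only in the alternative with no filter on low values, where it was not called. The authors' deposited table gives it a log2 fold change of −1.23 (SE 1.03, unadjusted p = 0.231), with the sign turned to 5xFAD over WT. A difference in Gdnf was not detectable at this depth.

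Ntrk2 (ENSMUSG00000055254.16) encodes TrkB, the receptor of BDNF and neurotrophin-4. It was the most abundant of the 8 genes and the steadiest. The libraries gave normalized counts of 13055, 12694 and 11507 in WT, against 12358, 12127 and 11841 in 5xFAD. The highest library exceeded the lowest by a factor of 1.13, and the 5xFAD values lay inside the WT range. The log2 fold change was −0.03 (SE 0.06, with its 95% interval from −0.17 to 0.10). Astrocytes mostly make a truncated TrkB without the kinase, and neurons the full-length form. GENCODE M21 lists 7 coding transcripts of Ntrk2, which the gene total does not separate, so a shift between the forms was not measured.

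Ntrk3 (ENSMUSG00000059146.13), which encodes TrkC, the receptor of neurotrophin-3, had normalized counts of 2750, 3611 and 2527 in WT, against 3141, 3652 and 3024 in 5xFAD. WT 63 and 5xFAD 65 were the 2 highest libraries, and the groups overlapped. The log2 fold change was 0.16 (SE 0.14, with its 95% interval from −0.17 to 0.48). Without WT 63 it was 0.31, with an unadjusted p of 0.00655 and a limma adjusted p of 0.815. In that fit 975 of 16208 tested genes had an unadjusted p under 0.05. Leaving out WT 66 instead gave Ntrk3 a log2 fold change of 0.05.

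Ngfr (ENSMUSG00000000120.7), the p75 receptor that binds every neurotrophin and their precursors, had normalized counts of 194, 179 and 183 in WT, against 180, 165 and 153 in 5xFAD. The WT values sat in a narrow band, and only 5xFAD 64 reached into it. The means were 185 ± 7.88 for WT and 166 ± 13.7 for 5xFAD (SD, n = 3 each), giving a log2 fold change of −0.16 (SE 0.11, with its 95% interval from −0.41 to 0.09).

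Ret (ENSMUSG00000030110.14), the signalling kinase of the GDNF family, had normalized counts of 1471, 1240 and 1280 in WT, against 1069, 1056 and 1383 in 5xFAD. Libraries 64 and 65 of 5xFAD lay below all WT libraries, and 5xFAD 79 lay among them. The means were 1330 ± 123 and 1169 ± 185 (SD, n = 3 each), giving a log2 fold change of −0.19 (SE 0.11, with its 95% interval from −0.45 to 0.07), with the smallest unadjusted limma p of the tested members, 0.125. Without 5xFAD 79 the log2 fold change of Ret was −0.32 (unadjusted p = 0.00476, limma adjusted p = 0.981). In that fit 567 of 16255 tested genes had an unadjusted p under 0.05. Leaving out WT 62 instead gave Ret a log2 fold change of −0.12.

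Gfra1 (ENSMUSG00000025089.16) encodes the co-receptor that prefers GDNF. Its normalized counts were 819, 923 and 830 in WT, against 790, 783 and 847 in 5xFAD, with overlap at 5xFAD 79. The log2 fold change was −0.09 (SE 0.07, with its 95% interval from −0.24 to 0.07). Gfra2 (ENSMUSG00000022103.11) encodes the co-receptor that prefers neurturin. Its normalized counts were 392, 473 and 379 in WT, against 416, 490 and 386 in 5xFAD, again highest in WT 63 and 5xFAD 65. The log2 fold change was 0.05 (SE 0.12, with its 95% interval from −0.20 to 0.31).

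**Figure D1:**
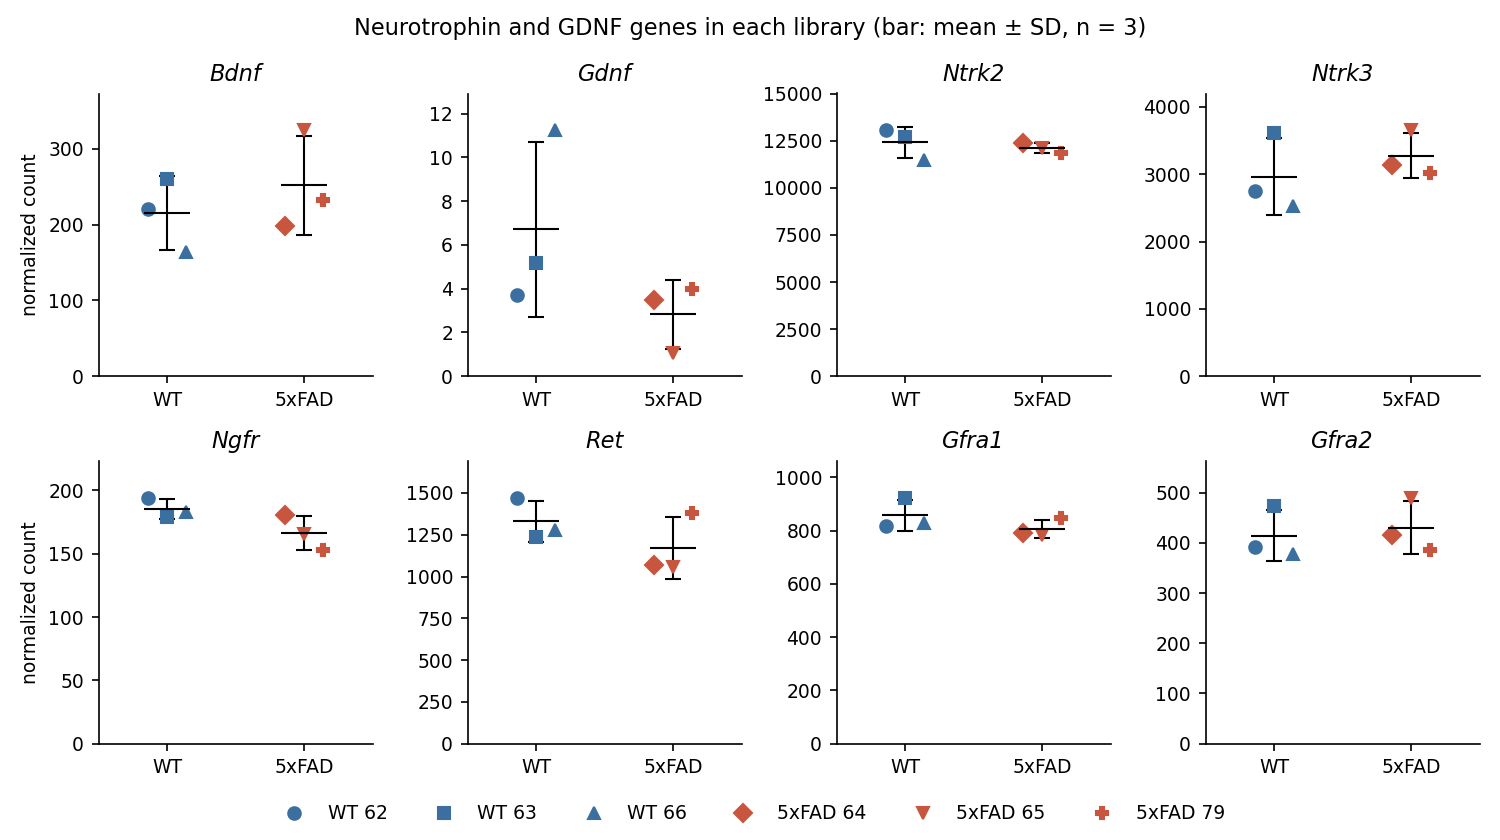
Normalized count (y axis, from 0) of each of the 8 genes in WT and 5xFAD libraries, with each library as a point and the mean ± SD of 3 libraries as bars. The genotypes overlap in all 8 panels, and WT 63 and 5xFAD 65 are the highest of their groups for Bdnf, Ntrk3 and Gfra2.

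None of the 7 tested members was called between the genotypes at a limma adjusted p under 0.05, where 0.00609% of the 16411 tested genes were called. The single gene called was Thy1, whose sequence the transgene cassette carries, with a log2 fold change of 1.23 (limma adjusted p = 0.0456). None of the 7 had an unadjusted p under 0.05, against 2.32% of all tested genes, and for none were the groups free of overlap, against 7.42% of all tested genes. On the reads recovered from the table, edgeR (0.00609% of all genes called) and DESeq2 (0.0244%) also called 0 of the 7, and neither gave any of them an unadjusted p under 0.05. Of the 7, 3 had higher values in 5xFAD (Bdnf, Ntrk3 and Gfra2) and 4 had lower values (Ntrk2, Ngfr, Ret and Gfra1), with a median log2 fold change of −0.03 against 0.00053 over all tested genes.

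The intervals set limits on what could differ in the punched tissue. For 6 of the 7 members the 95% interval lay within a 1.5-fold change either way, as it did for 71.4% of all tested genes. For Ntrk2 the interval ran from 0.889-fold to 1.07-fold, and for Gfra1 from 0.845-fold to 1.05-fold. Bdnf was the exception, since its interval reached 1.66-fold. Without 5xFAD 79 the interval of Ntrk3 also passed 1.5-fold, and without WT 66 or without 5xFAD 65 all 7 lay within it. The bounds hold for the mixture of cells in a punch and not for noradrenergic neurons alone.

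**Figure D2:**
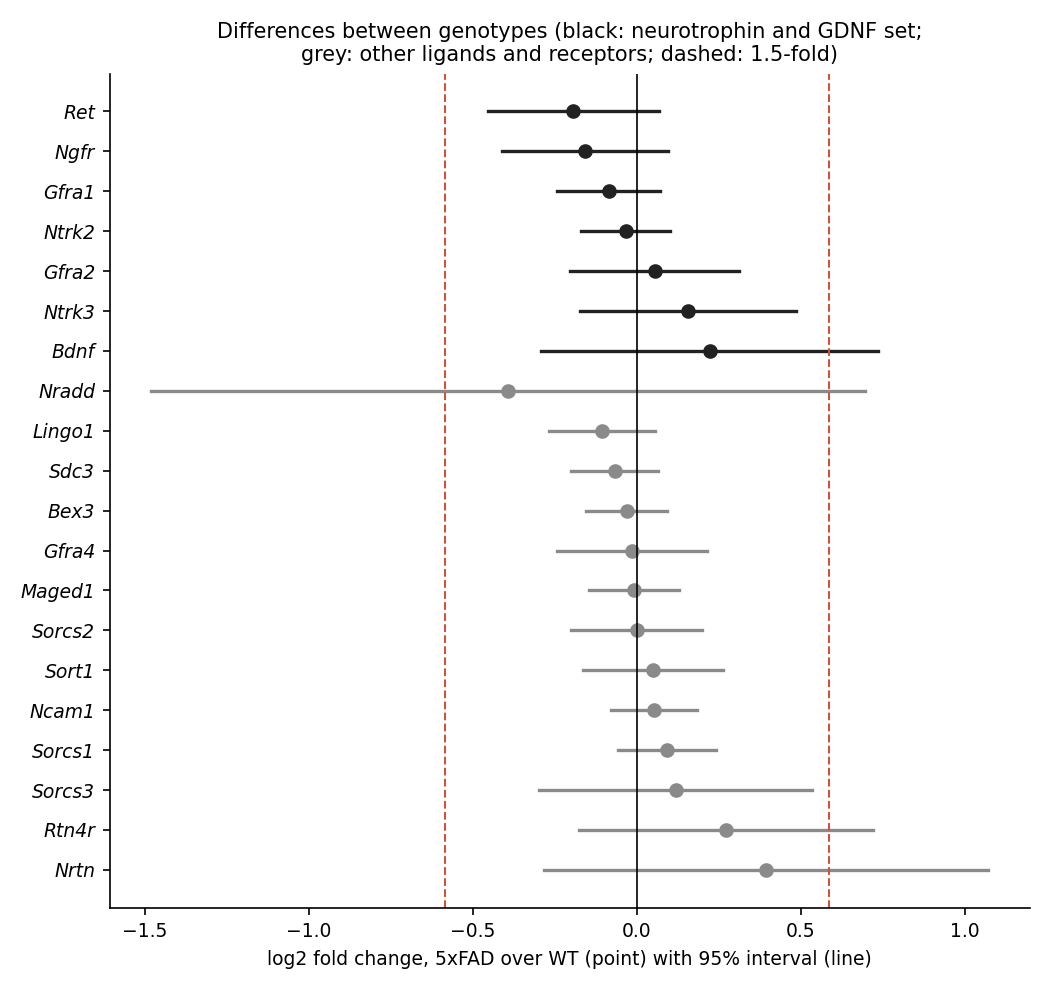
Log2 fold change of 5xFAD over WT (x axis, points) with its 95% limma interval (lines) for the 7 tested members (black) and 13 other tested genes of both families (grey), with dashed lines at a 1.5-fold change. Every interval crosses 0, and among the members only that of Bdnf crosses a dashed line.

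Per kilobase of exon, the Trk kinases, Ret and both GFRα co-receptors lay above the ligands in every library, while Ngfr overlapped Bdnf. With exon lengths merged over all transcripts of GENCODE M21 (GRCm38), Ntrk2 had a mean level of 636 normalized counts per kilobase over the 6 libraries (range 596 to 677), which is above 93.2% of the tested genes. Ret followed at 185 (156 to 217) and Gfra1 at 152 (143 to 169), and these ranges overlapped. Gfra2 at 119 (107 to 138) and Ntrk3 at 103 (83.8 to 121) also overlapped. Ngfr at 51.0 (44.4 to 56.3) and Bdnf at 37.5 (26.3 to 52.2) overlapped as well. Gdnf was last at 1.30 (0.283 to 3.06). The ranges of Ntrk2 and Ret, of Gfra1 and Gfra2, of Ntrk3 and Ngfr, and of Bdnf and Gdnf did not overlap.

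The order among close neighbours depends on the length used. Ntrk2 and Ntrk3 have long alternative exons, and per kilobase of the longest coding transcript they had levels of 1403 and 158. On that scale Ntrk3 stood above Gfra2 at 122, and Bdnf at 54.7 stood above Ngfr at 51.0. Ntrk2, Ret, Gfra1 and Gdnf kept their places. The ratio of Ntrk2 to Ntrk3 in level per kilobase of merged exon was 7.42, 5.50 and 7.12 in WT, against 6.15, 5.19 and 6.12 in 5xFAD (exact permutation test of the log2 ratio, two-sided, p = 0.3, where 3 against 3 cannot reach a p under 0.1). The ratio of Ret to Gfra1 was 1.45, 1.09 and 1.249 in WT, against 1.09, 1.09 and 1.32 in 5xFAD (exact permutation test of the log2 ratio, two-sided, p = 0.7). Neither ratio separated the genotypes.

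**Figure D3:**
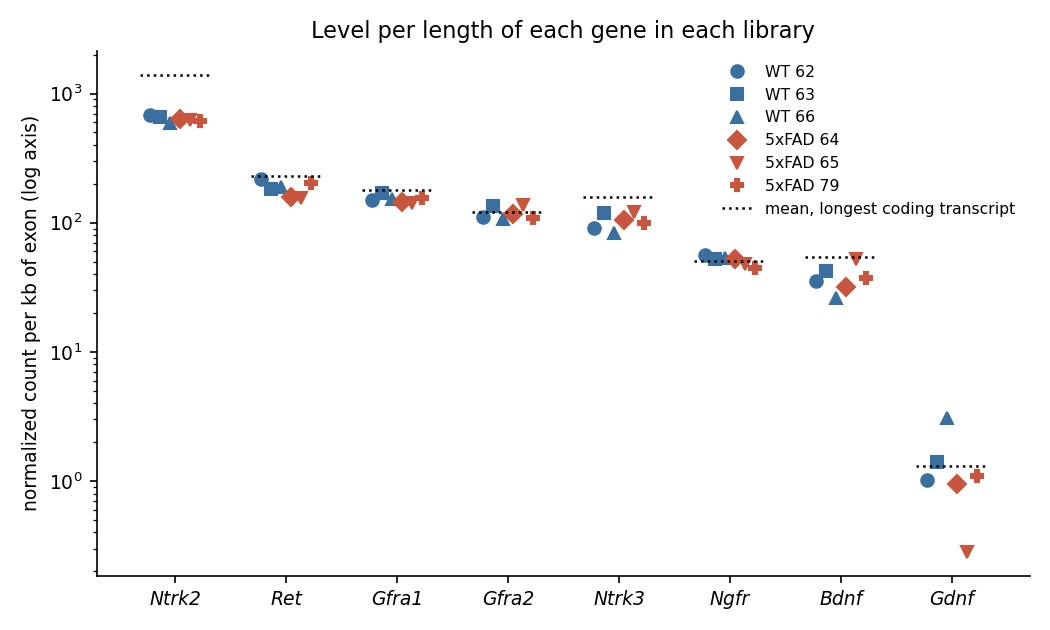
Normalized count per kilobase of merged exon (y axis, log scale) of the 8 genes in each of the 6 libraries, ordered by mean, with a dotted line at the mean per kilobase of the longest coding transcript. Ntrk2 stands alone at the top and Gdnf alone at the bottom, and the ranges overlap for Ret and Gfra1, for Gfra2 and Ntrk3, and for Ngfr and Bdnf.

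The profile of Bdnf over the 6 libraries resembled that of the noradrenergic markers. The mean log2 value of the 10 markers was 8.57, 8.72 and 8.03 in WT, against 8.47, 8.84 and 8.48 in 5xFAD, lowest in WT 66 and highest in 5xFAD 65, as Bdnf was. Pearson's r was 0.94 (exact permutation p = 0.00972, Benjamini-Hochberg adjusted p = 0.300) and Spearman's rho 0.94 (exact permutation p = 0.0167, adjusted p = 0.303) over the 6 libraries. The adjustment covers 91 relations, those of 7 members with 13 marker lists, and none of them passed it. Without WT 66 and 5xFAD 65, the libraries farthest from the median of the markers, r was 0.82. Computed from deviations from the genotype means, r was 0.94. Of all tested genes, 1.02% had an r at least as high with the same markers.

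With the mean of the noradrenergic markers as a covariate in the limma fit, the log2 fold change of Bdnf was 0.04 in place of 0.22. That of Ntrk3 was 0.05 in place of 0.16, and that of Gfra2 was −0.02 in place of 0.05. Ret stayed at −0.18, Ngfr at −0.16 and Gfra1 at −0.10, and Ntrk2 had −0.06. No member was called in this fit. Bdnf was also at 0.04 with the Purkinje marker mean as covariate instead, which was chosen after values were seen. Since either covariate gave Bdnf the same value, these fits cannot tell noradrenergic from Purkinje content. The part that noradrenergic content has in these values was not tested.

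Ntrk3 and Gfra2 had their highest r with the Purkinje cell markers. The mean log2 value of the 5 Purkinje markers was 8.56, 11.13 and 9.17 in WT, against 10.44, 11.50 and 9.67 in 5xFAD, a spread of 7.67-fold between the lowest and the highest library. For Ntrk3, r was 0.93 (exact permutation p = 0.0167, adjusted p = 0.300) and rho 0.94 (exact permutation p = 0.0167, adjusted p = 0.303), with r = 0.95 without the 2 farthest libraries. For Gfra2, r was 0.91 (exact permutation p = 0.0167, adjusted p = 0.300) and rho 0.83 (exact permutation p = 0.0583, adjusted p = 0.408), with r = 0.97 without the 2 farthest libraries. Of all tested genes, 2.39% had an r with these markers at least as high as Ntrk3, and 3.08% as Gfra2. Both genes also ran with the noradrenergic list, at r = 0.87 for Ntrk3 and 0.81 for Gfra2. The cerebellar granule cell list gave r = 0.90 for Ntrk3 and 0.83 for Gfra2, so these lists cannot be told apart with 6 libraries. Gfra2 ran against the oligodendrocyte markers at r = −0.90 (exact permutation p = 0.025, adjusted p = 0.300), which became −0.17 without the 2 farthest libraries. Each of the 5 Purkinje markers ran with both genes singly. With the Purkinje mean as a covariate, chosen after the library values were seen, the log2 fold change of Ntrk3 was −0.0014 and that of Gfra2 was −0.08.

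Ret did not follow the noradrenergic markers, although noradrenergic neurons express it. Its r with that list was −0.30 (exact permutation p = 0.593) and its rho −0.31 (exact permutation p = 0.564), and WT 66, the library lowest in noradrenergic markers, had more Ret than WT 63. The mean of 6 endothelial and mural markers had r = −0.92 with Ret (exact permutation p = 0.00278, the smallest that 6 libraries can give, adjusted p = 0.253) and rho = −0.94 (exact permutation p = 0.0167, adjusted p = 0.303), but this rested on Acta2, the actin of vascular smooth muscle. Acta2 read 52.0, 98.9 and 85.8 in WT, against 101, 198 and 51.0 in 5xFAD, and without it the r of the list mean was 0.42. Singly, Cldn5, Pecam1, Flt1 and Rgs5 ran with Ret, and Acta2 and Pdgfrb against it. With 6 meningeal fibroblast markers, all of which ran against Ret, r was −0.84 (exact permutation p = 0.0264, adjusted p = 0.300), which became −0.30 without the 2 farthest libraries. The part of these cells in the Ret values was not tested. Against the Purkinje markers r was −0.80 (exact permutation p = 0.0639, adjusted p = 0.447) and rho −0.89 (exact permutation p = 0.0333, adjusted p = 0.379), weakening to r = −0.46 without the 2 farthest libraries. With the Purkinje mean as a covariate the log2 fold change of Ret was −0.09 in place of −0.19.

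The remaining members, Ntrk2, Gfra1 and Ngfr, had smaller r. Ntrk2 was closest to the microglial markers, inversely, at r = −0.81 and rho = −0.94 (exact permutation p = 0.0514 and 0.0167, adjusted p = 0.442 and 0.303). It also ran against the choroid plexus markers at r = −0.73 (exact permutation p = 0.075, adjusted p = 0.4875), which became 0.30 without the 2 farthest libraries. Against the astrocyte markers r was −0.70 (exact permutation p = 0.117, adjusted p = 0.562), which became −0.31 without the 2 farthest libraries. Singly, 5 of the 6 astrocyte markers ran against Ntrk2, and Slc1a3 ran with it at r = 0.18. Gfra1 was closest to the meningeal fibroblast markers at r = −0.70 (exact permutation p = 0.124, adjusted p = 0.562), which weakened to −0.28 without the 2 farthest libraries. No list reached an r of 0.5 in size with Ngfr.

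**Figure D4:**
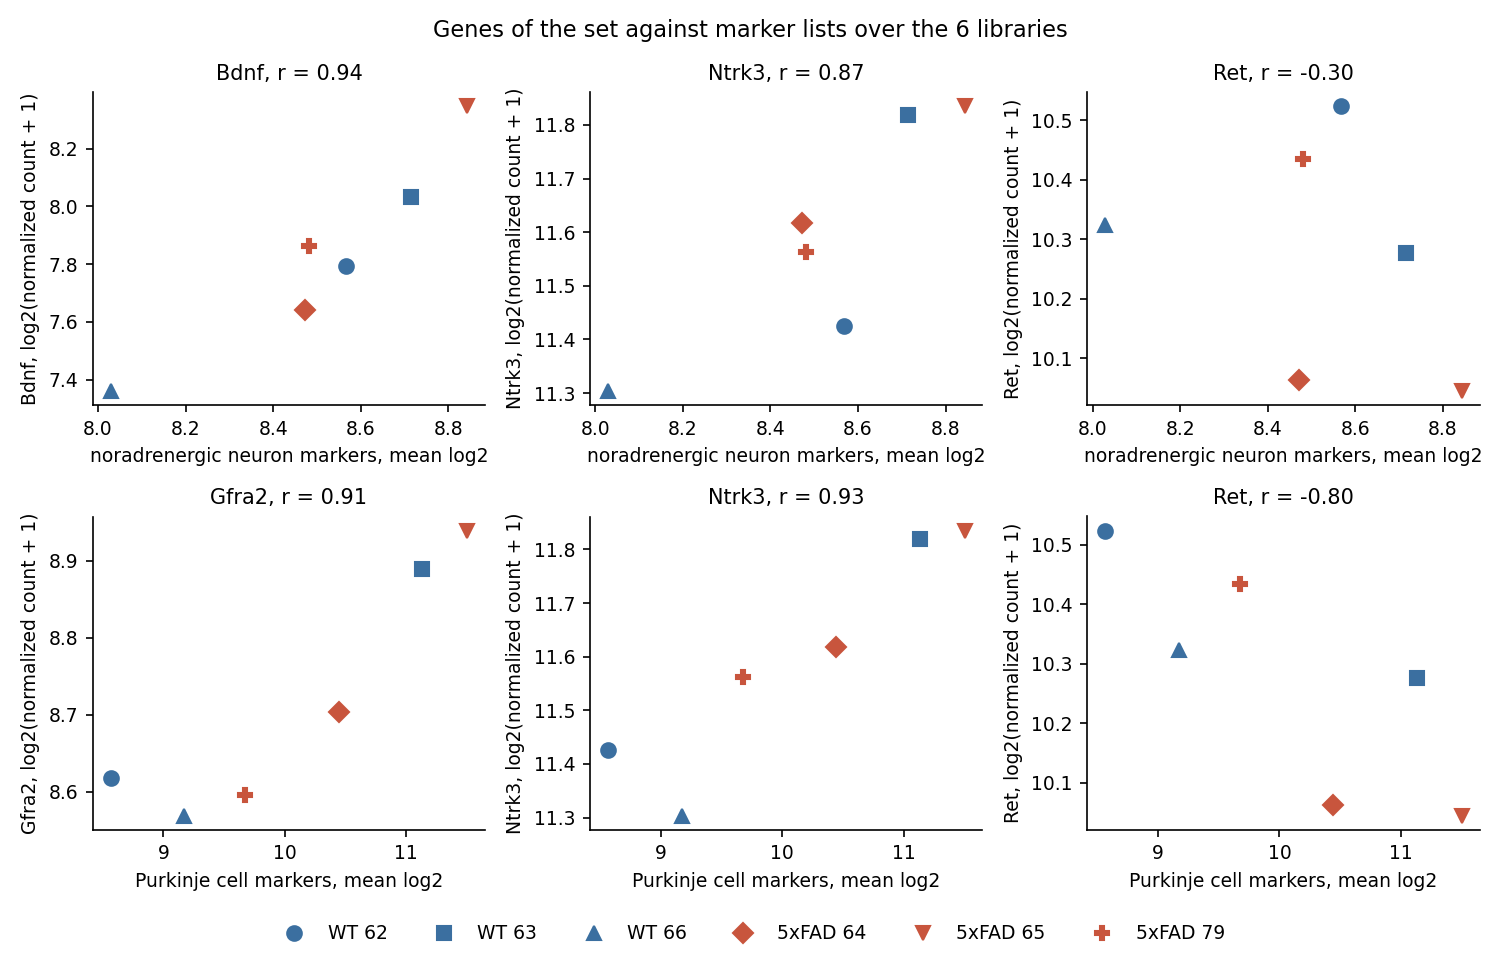
Log2(normalized count + 1) of Bdnf, Ntrk3 and Ret against the mean log2 value of noradrenergic markers (upper row), and of Gfra2, Ntrk3 and Ret against that of Purkinje cell markers (lower row), in the 6 libraries, with Pearson's r above each panel. Bdnf climbs with the noradrenergic markers (r = 0.94), Ntrk3 and Gfra2 with the Purkinje markers (r = 0.93 and 0.91), and Ret has no such slope with the noradrenergic markers (r = −0.30).

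The tested genes closest in profile to each member were found by the root mean square difference of centred log2 values over the 6 libraries, among genes of similar spread. For Bdnf, whose SD over the libraries was 0.34 on the log2 scale, they were Cpne5 (0.065), Gal (0.069) and Cbfa2t3 (0.086). Gal encodes the neuropeptide galanin, which most noradrenergic neurons of this nucleus make, and is one of the 10 noradrenergic markers. Normalized counts of Gal were 146, 186 and 105 in WT, against 122, 218 and 162 in 5xFAD, in the same order of libraries as Bdnf. For Ntrk3, with an SD of 0.21, they included Ppfia2 (0.017) and the neuronal calcium sensor Hpcal1 (0.029).

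For Ret, with an SD of 0.19, the closest genes were Psmg1 (0.032), the nuclear receptor Nr2f2 (0.045) and Mpi (0.045). For Gfra2, with an SD of 0.16, they were Tut4 (0.020), Neurl1a (0.021) and the large-conductance potassium channel Kcnma1 (0.023). For Gfra1, with an SD of 0.086, they were Mdp1 (0.012), the neuronal adhesion protein Cntnap2 (0.016) and Ebna1bp2 (0.022). For Ngfr, with an SD of 0.12, they were Ints5 (0.016), mt-Nd4l (0.026) and Rpap3 (0.028). For Ntrk2, with an SD of 0.066, they were Tram1 (0.0089), Hikeshi (0.016) and Pank4 (0.016). Steady genes lie closer to one another on this measure, so the values do not rank the members.

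The other ligands described here were scarce, with 2 to 93 reads each in all. Ntf3, neurotrophin-3, had 30 reads over the 6 libraries, and Ntf5, neurotrophin-4, had 4. Among the GDNF relatives, Artn (artemin) had 19 reads, Pspn (persephin) 2 and Gdf15, the ligand of Gfral, 7. These were under the filter and were not tested where it applied. Nrtn, neurturin, the preferred ligand of the Gfra2 product, had 93 reads and was tested. Its normalized counts were 13.9, 14.6 and 11.2 in WT, against 18.5, 15.6 and 19.0 in 5xFAD, so the groups did not overlap, yet its log2 fold change of 0.39 (SE 0.30, with its 95% interval from −0.28 to 1.07) had an unadjusted limma p of 0.223.

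The remaining receptors ranged from 1 read in all to abundant. Gfra4, the persephin co-receptor, read 202, 231 and 216 in WT, against 209, 226 and 208 in 5xFAD, all inside the WT range. Gfra3 had 17 reads over all libraries and Gfral 1 read. Ncam1 and Sdc3, adhesion molecules that bind GDNF without Ret, had log2 fold changes of 0.05 (SE 0.06) and −0.07 (SE 0.06).

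Partners of the p75 receptor had intervals within a 1.5-fold change, except Rtn4r and Nradd. For Sort1 (sortilin), its co-receptor for pro-neurotrophins, the log2 difference was 0.05 (SE 0.09), and its relatives Sorcs1, Sorcs2 and Sorcs3 had 0.09 (SE 0.07), −0.0010 (SE 0.09) and 0.12 (SE 0.18). Lingo1 and Rtn4r, which form a receptor for myelin inhibitors with p75, had −0.11 (SE 0.07) and 0.27 (SE 0.20). The p75 interactors Bex3 and Maged1 had −0.03 (SE 0.055) and −0.01 (SE 0.06), and the p75 homolog Nradd, at 5.78 to 25.5 normalized counts, had −0.39 (SE 0.49). Of the 10 tested genes of the neurotrophin list, 4 had higher and 6 lower values, with a median log2 fold change of −0.0051. Of the 4 tested genes of the GDNF list, 2 had higher and 2 lower values, with a median of 0.02. The limma test called 0 of these 14.

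Genes that process and release pro-neurotrophins had 7 higher and 2 lower values of 9 tested, with a median log2 fold change of 0.15, and 0 passed over all genes. Plat, tissue plasminogen activator, which frees plasmin to cleave proBDNF, had the smallest p of the list. Normalized counts of Plat were 630, 557 and 522 in WT, against 713, 806 and 627 in 5xFAD, so that the lowest 5xFAD library fell just short of the highest WT library. Its log2 fold change was 0.32 (SE 0.10, with its 95% interval from 0.09 to 0.56, unadjusted p = 0.0120, limma adjusted p = 0.9995). The convertase Pcsk6 had 0.16 (SE 0.13). Cpe, carboxypeptidase E, which sorts BDNF to regulated granules, had −0.08 (SE 0.06), and the transport adaptor Hap1 had 0.10 (SE 0.16).

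Receptor adaptors and signalling genes had 14 higher and 8 lower values of 22 tested, with a median log2 fold change of 0.04, and all 22 intervals lay within a 1.5-fold change. Dok5 and Dok6, docking proteins of Ret and the Trk receptors, had −0.18 (SE 0.09) and −0.09 (SE 0.06). Plcg1, the phospholipase that Trk receptors activate, read 1405, 1425 and 1434 in WT, against 1569, 1476 and 1515 in 5xFAD, without overlap, and had a log2 fold change of 0.10 (SE 0.05, unadjusted p = 0.102, limma adjusted p = 0.9995). Dok6 was the other gene of the list without overlap, and 2 of 22 is close to the 7.42% of all tested genes without overlap. Kidins220, a scaffold of Trk receptors, had −0.0059 (SE 0.05).

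Genes that receptor signalling is known to induce had 5 higher and 8 lower values of 13 tested, with a median log2 fold change of −0.08. Vgf, a granule peptide precursor that neurotrophins induce, read 2534, 2616 and 1787 in WT, against 1715, 2039 and 2044 in 5xFAD, for a log2 difference of −0.24 (SE 0.16). Etv4, a transcription factor downstream of Ret in developing tissue, had −0.17 (SE 0.15), and the feedback inhibitors Spry2 and Spred1 had −0.12 (SE 0.11) and 0.02 (SE 0.06). With the filter, 58 of the 68 genes of the 5 lists were tested. The limma test called 0 of them, and 1, Plat, had an unadjusted p under 0.05, a share no higher than the 2.32% of all tested genes.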

How the data were processed

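Libraries were made from poly-T selected RNA and sequenced on an Illumina instrument, per the labels' protocols. STAR, RSEM, DESeq2 and build mm39 appear in the submitters' processing notes. How strand was treated is not stated. The deposited table is named TPM, yet each library column is a signal: gene counts over a size factor, since 100% of values were whole multiples of 1 step (tolerance 0.001). The deposited table also holds the authors' log2 fold change, its test score and the authors' p-value, as WT over 5xFAD, and the sign was turned. Symbols matched 52073 identifiers. Bdnf and Gfra1 each overlap an antisense gene, whose normalized counts were at most 5.16.

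Genes reaching 10 in at least 3 libraries (16411) entered limma 3.58.1 (R 4.3.3) as log2(normalized count + 1), with variance trend and robust moderation and Benjamini-Hochberg adjustment over all of them at 0.05. The design expected another normalized unit and its test was kept. The alternatives used edgeR 4.0.16 and DESeq2 1.42.0 on recovered reads, other scalings, filters and covariates, and leaving out each library. The functions were tested on simulated data. Python 3.11.15 computed the relations. Members and lists were chosen with earlier results of these data known. The text names all members, the other ligands and receptors of both families, up to 3 genes by smallest p and 2 by highest mean from each other list, and the 3 genes nearest each member in profile, except some that are not reported here. The Purkinje covariate, the coding length, the relations printed and their split by single marker were chosen after values were seen.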

Additional observations from a re-analysis of the deposited data

How the results depend on the processing

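The members were called under none of the 17 alternatives run, and neither were the genes of the 5 lists. The log2 fold changes of Bdnf (0.02 to 0.38), Ngfr (−0.22 to −0.10), Ret (−0.32 to −0.09) and Gfra1 (−0.12 to −0.03) kept their sign under all 17. Leaving out 1 library put Ntrk2 between −0.089 and 0.0025, the latter without WT 62. The Purkinje mean as covariate put Ntrk3 at −0.0014. The Gfra2 log2 fold change turned to −0.022 with the noradrenergic covariate and to −0.076 with the Purkinje covariate, and leaving out 1 library gave −0.042 (without 5xFAD 65) to 0.15, with −0.0072 without WT 66. The cause was not tested. The smallest adjusted p of any member under any alternative was 0.815. The single call over all genes became 0 in limma without variance trend and robust moderation (535 genes had an unadjusted p under 0.05) and 4 with DESeq2, and leaving out 1 library gave 0 to 2. Thy1 was called without 5xFAD 65 and in none of the other 5 such fits, and with no filter on low values or without WT 66 the single call was another gene. No scaling moved the median of all genes by over 0.1. No paired analysis was possible because the genotypes share no library number. Depth limits Gdnf and the other scarce ligands, and 3 libraries a group limit Bdnf.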
